A study of Homo sapiens with 12 samples.

Results

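The 8 genes described here encode ligands and receptors of the interleukin-1 family: IL1A, IL1B, IL1RN, IL33, IL18, IL1R1, IL1R2 and IL1RAP. They were chosen by name, each had 1 probe set on the array, and all 8 were among the 18404 genes tested. The measurements came from 12 Affymetrix Human Gene ST arrays of JHU-029 and FaDU, established lines derived from squamous tumours of the head and neck. Each line had received a lentiviral control shRNA (shControl) or an shRNA against TP63 (shTP63), the gene of the basal keratinocyte factor p63, and RNA was taken 72 hours later. The 4 groups (JHU-029 shControl, JHU-029 shTP63, FaDU shControl and FaDU shTP63) held 3 arrays each. Both lines were grown in serum-containing medium. Which medium belonged to which line, and how many hairpins were used, are not given in the sources used here. Expression of TP63 itself is not analysed here, so the knockdown itself was not checked. Values are log2 intensities, and a difference of 1 on that scale is a doubling.

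Interleukin-1 alpha and interleukin-1 beta, the products of IL1A and IL1B, bind the receptor IL1R1, which then recruits the accessory chain IL1RAP and signals through MYD88, IRAK kinases and NF-kB. The antagonist IL1RN occupies IL1R1 without signalling, and the decoy receptor IL1R2 binds ligand without a signalling domain. Interleukin-1 beta and interleukin-18 are made as precursors that caspase-1 cleaves, whereas the precursor of interleukin-1 alpha is active when released from damaged cells. Keratinocytes store interleukin-1 alpha, and interleukin-33 is a nuclear alarmin whose receptor IL1RL1 also pairs with IL1RAP.

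The IL1R1 agonists IL1A and IL1B and the accessory receptor chain IL1RAP were lower after TP63 knockdown in both lines. The falls of IL1A and IL1B were larger in FaDU. Of the other agonist ligands, IL18 was called lower only in FaDU and IL33 in neither line. In FaDU, IL1A fell 6.43-fold, IL1B 2.76-fold, IL18 1.56-fold and IL1RAP 1.27-fold, and 0 of the 8 genes rose. In JHU-029, IL1A fell 1.40-fold, IL1B 1.28-fold and IL1RAP 1.19-fold, and 0 rose. Thus 4 of 8 members passed in FaDU, where 26.6% of all genes tested passed, 14.2% as lower and 12.4% as higher. In JHU-029 3 of 8 passed, where 3.15% of all genes passed and 1.35% were called lower and 1.8% higher. The arrays of the 4 genes in FaDU and of the 3 in JHU-029 did not overlap between shTP63 and shControl. Over all genes, 18% lay wholly lower and 18.1% wholly higher in FaDU, and 11.7% and 13.3% did so in JHU-029. The falls of IL1A, IL1B and IL18 were larger in FaDU than in JHU-029 by the test of that difference, which called 8.25% of all genes lower and 4.97% higher. The median difference over the 8 genes was -0.31 in FaDU, against 0.0156 over all genes, and -0.07 in JHU-029, against 0.000282. These calls use limma with Benjamini-Hochberg adjustment over all 18404 genes at a threshold of 0.05.

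**Figure D1:**
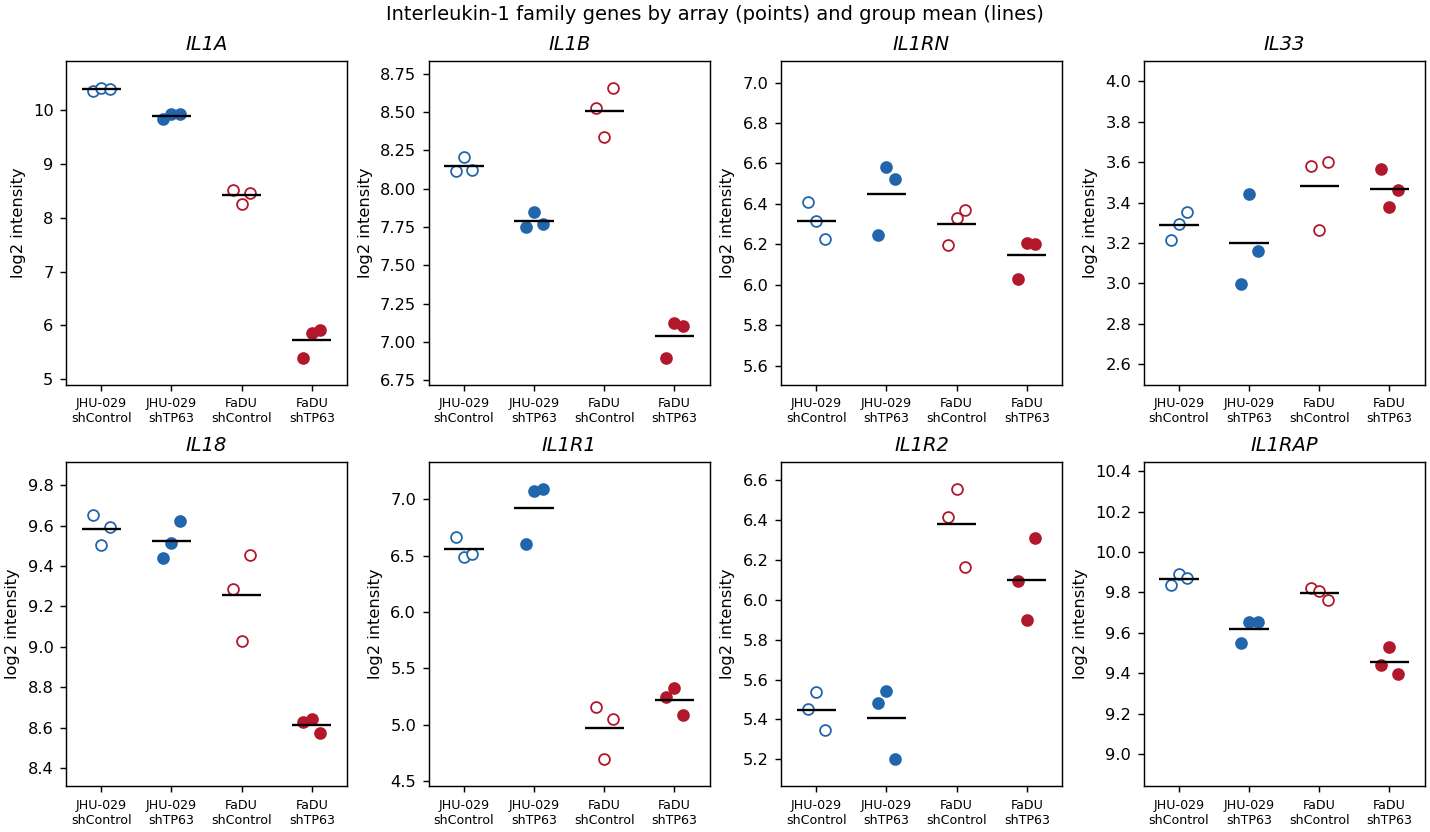
Log2 intensity of each of the 8 genes (one panel each, with its own range of at least 1.6 log2 units) in the 4 groups; points are single arrays, open for shControl and filled for shTP63, and lines are the means of 3 arrays. The 4 groups of IL1A do not overlap, from 10.35 to 10.41 in JHU-029 controls down to 5.40 to 5.92 in FaDU after knockdown, while those of IL1RN do.

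For the members called lower in both lines, the 250 bases before a start site are shown. Whether these genes share regulation was not tested. They are RefSeq sequences of build GRCh38.p14, given 5′ to 3′ on the gene's strand, and 7 of the 8 members had an entry in the promoter table. The IL1A window is chr2:112784494-112784743 (minus strand), upstream of the more distal of 2 listed start sites. The IL1B window is chr2:112836780-112837029 (minus strand), and that of IL1RAP is chr3:190513835-190514084 (plus strand). Capitals mark matches on either strand to AP-1 (TGANTCA), NF-kB (GGG, any 5 bases, then CC), C/EBP (TTGNNCAA) or the p53-family decamer.
IL1A: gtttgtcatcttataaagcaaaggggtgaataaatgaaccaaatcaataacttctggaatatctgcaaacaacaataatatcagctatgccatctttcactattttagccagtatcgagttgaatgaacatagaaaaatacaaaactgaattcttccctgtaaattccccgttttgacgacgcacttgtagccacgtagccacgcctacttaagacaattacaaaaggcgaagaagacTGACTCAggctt
IL1B: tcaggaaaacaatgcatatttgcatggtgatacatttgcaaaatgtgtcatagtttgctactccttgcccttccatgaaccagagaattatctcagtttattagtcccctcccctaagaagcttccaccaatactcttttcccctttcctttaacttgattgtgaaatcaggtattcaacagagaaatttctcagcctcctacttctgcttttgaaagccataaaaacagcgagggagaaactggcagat
IL1RAP: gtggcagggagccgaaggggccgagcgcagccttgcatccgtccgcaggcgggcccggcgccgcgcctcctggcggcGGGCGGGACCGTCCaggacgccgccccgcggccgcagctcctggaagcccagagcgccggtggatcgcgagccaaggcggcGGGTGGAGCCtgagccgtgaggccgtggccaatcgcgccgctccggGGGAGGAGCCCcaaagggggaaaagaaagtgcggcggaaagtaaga
The IL1A window held 1 AP-1 match, TGACTCA, from 12 to 6 bases before the start. The overlapping window before the nearer start holds it too, 105 to 99 bases upstream, and another AP-1 match, TGAGTCA, 55 to 49 bases upstream. AP-1 matches occur in 6.57% of the 35116 promoter windows of this length. The IL1RAP window held 5 NF-kB matches, some overlapping each other, and this loose motif occurs in 54.4% of windows. In the IL1B window none of these motifs was found, which says only that the letters are absent from these 250 bases. C/EBP and p53-family matches, found in 4.90% and 5.57% of all windows, were absent from all 3 sequences. Windows of members not called after knockdown held such motifs too. IL1RN had an AP-1 match, IL1RN, IL1R1 and IL1R2 had NF-kB matches, and IL1R1 had a p53-family match. Base composition differed, with 37.6% G and C in the IL1A window, 40.0% in that of IL1B and 74.8% in that of IL1RAP.

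IL1A (probe set 8054712), the epithelial alarmin of the family, had log2 intensities of 8.52, 8.26 and 8.46 in the FaDU control arrays and 5.40, 5.86 and 5.92 after TP63 knockdown. In linear intensity these were 367.6, 305.8 and 353.1 against 42.2, 58.3 and 60.7. The groups lay far apart, and the lowest knockdown value was that of replicate 1. The mean went from 8.41 ± 0.14 (SD, n = 3) to 5.73 ± 0.29, a difference of -2.69 (SE 0.12, limma adjusted p = 1.95e-08). In JHU-029 the control arrays read 10.35, 10.41 and 10.40 and the knockdown arrays 9.84, 9.92 and 9.94. These did not overlap either, and the mean fell by 0.49 (SE 0.12, limma adjusted p = 0.0425), the 58th lowest difference of 18404 genes. The effect in FaDU minus that in JHU-029 was -2.20 (SE 0.16, limma adjusted p = 8.96e-06). After knockdown, IL1A in FaDU lay at percentile 25.2 of all genes, and the part of background signal in that value was not tested. With 16 added to each intensity before the logarithm, the difference was -2.37.

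IL1B (probe set 8054722), the inflammasome-processed agonist, read 8.52, 8.34 and 8.66 in FaDU controls and 6.90, 7.12 and 7.10 after knockdown. Again replicate 1 was the lowest knockdown array, and the groups were separate. The difference was -1.46 (SE 0.08, limma adjusted p = 1.92e-07), the 15th lowest among all genes in FaDU. In JHU-029 the controls read 8.11, 8.21 and 8.12 and the knockdown arrays 7.75, 7.85 and 7.77, a fall of 0.36 (SE 0.08, limma adjusted p = 0.0385). The effect in FaDU minus that in JHU-029 was -1.10 (SE 0.12, limma adjusted p = 0.000115), so IL1B, like IL1A, fell more in FaDU.

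IL18 (probe set 7951686), the other caspase-1 substrate among the members, read 9.29, 9.03 and 9.46 in FaDU controls and 8.63, 8.65 and 8.57 after knockdown. The knockdown arrays were close together below the more scattered controls, and the fall was 0.64 (SE 0.09, limma adjusted p = 0.000233). In JHU-029 the arrays overlapped, at 9.65, 9.51 and 9.59 in controls and 9.44, 9.51 and 9.62 after knockdown. The difference there was -0.06 (95% interval -0.26 to 0.14, limma adjusted p = 0.868). The difference between the lines passed, at -0.58 (SE 0.13, limma adjusted p = 0.0113), in all of the 24 alternatives that gave it (adjusted p up to 0.042).

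IL1RN (probe set 8044574), the secreted and intracellular antagonist, did not pass in either line. It was dim, with a mean percentile among all genes between 31.8 and 38. FaDU controls read 6.20, 6.33 and 6.37 and knockdown arrays 6.03, 6.21 and 6.20, with overlap of the groups. The difference was -0.15 in FaDU (95% interval -0.35 to 0.04, limma adjusted p = 0.249) and 0.13 in JHU-029 (-0.06 to 0.33, adjusted p = 0.598). JHU-029 controls read 6.41, 6.32 and 6.23 and knockdown arrays 6.25, 6.58 and 6.52. The difference between lines, -0.29, missed the threshold (limma adjusted p = 0.179) but passed without JHU-029 shTP63 replicate 1 (-0.39, adjusted p = 0.0389).

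IL33 (probe set 8154295) stayed at the dim end of the array in every group. Its group means lay between 3.20 and 3.48, and its mean percentile among all genes between 1.5 and 2.3. The differences were -0.09 in JHU-029 (limma adjusted p = 0.825) and -0.02 in FaDU (adjusted p = 0.942). The files give no detection call, so whether IL33 was above background is unknown.

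Among the receptors, IL1RAP (probe set 8084794), the chain shared by the interleukin-1, interleukin-33 and interleukin-36 receptors, fell in both lines. FaDU controls read 9.82, 9.81 and 9.76 and knockdown arrays 9.44, 9.53 and 9.40. JHU-029 controls read 9.84, 9.89 and 9.87 and knockdown arrays 9.55, 9.65 and 9.65. In both lines every knockdown array lay below every control, with falls of 0.34 in FaDU (SE 0.05, limma adjusted p = 0.00049) and 0.25 in JHU-029 (SE 0.05, adjusted p = 0.0286). The difference between the lines was -0.09 (95% interval -0.26 to 0.07, limma adjusted p = 0.51).

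IL1R1 (probe set 8043995), the signalling receptor, read 6.49 to 6.67 in JHU-029 controls and 6.60, 7.08 and 7.09 after knockdown, where replicate 1 lay within the range of the controls. The difference of 0.37 missed the threshold (95% interval 0.06 to 0.67, limma adjusted p = 0.222), but passed without JHU-029 shTP63 replicate 1 (0.53, adjusted p = 0.0477) and with array weights (adjusted p = 0.0112). In FaDU the receptor was dim, with 5.15, 4.69 and 5.05 in controls and 5.24, 5.32 and 5.08 after knockdown (0.25, 95% interval -0.05 to 0.55, limma adjusted p = 0.224). IL1R2 (probe set 8043981), the decoy receptor, overlapped between shTP63 and shControl in both lines, at mean percentiles between 22.5 and 36.3. Its difference was -0.28 in FaDU (limma adjusted p = 0.126) and -0.04 in JHU-029 (adjusted p = 0.948). In FaDU it passed without shControl replicate 3 (-0.38, adjusted p = 0.0474) or without shTP63 replicate 3 (adjusted p = 0.0477).

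**Figure D2:**
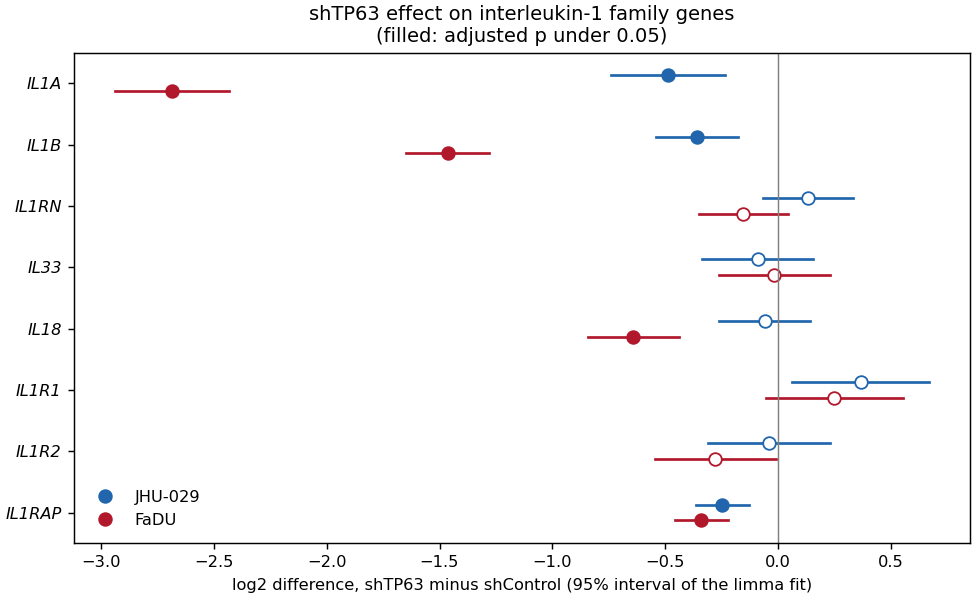
Log2 difference between shTP63 and shControl for each of the 8 genes in JHU-029 (blue) and FaDU (red), with 95% intervals of the limma fit; filled points have an adjusted p under 0.05. IL1A reaches -2.69 and IL1B -1.46 in FaDU, the intervals of IL1RAP overlap between the lines, and those of IL1RN, IL33 and IL1R2 in JHU-029 include 0.

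The calls in JHU-029 were weak. IL1A, IL1B and IL1RAP each missed the threshold in limma fits that left out any one of the 6 JHU-029 arrays (shControl 1, 2 or 3, shTP63 1, 2 or 3). Adjusted p then lay between 0.11 and 0.145 for IL1A, between 0.0896 and 0.157 for IL1B and between 0.0713 and 0.127 for IL1RAP. IL1A was also lost without FaDU shControl replicate 3 (0.0566). Another alternative left out both FaDU controls whose titles carry an extra word, which is found on no other array. That fit leaves 1 FaDU control array. Only differences from it are therefore quoted below, while counts and ranges over the alternatives include it. Centring the arrays on a common median ended all 3 calls (0.0576, 0.0659 and 0.0626). Over all 25 alternatives the difference kept its sign, from -0.50 to -0.46 for IL1A, -0.39 to -0.33 for IL1B and -0.27 to -0.21 for IL1RAP. In FaDU the calls of IL1A, IL1B, IL18 and IL1RAP held in all 25 alternatives.

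Under the control shRNA, the lines differed in 5 of the 8 members, where 63.8% of all genes passed, 33.4% of them called higher and 30.4% lower in FaDU as shares of all genes. IL1A was 3.92-fold lower in FaDU (-1.97, SE 0.12, limma adjusted p = 7.91e-09), and IL1R1 was 3.01-fold lower (-1.59, SE 0.14, adjusted p = 3.68e-07). IL18 was lower by 0.33 on that scale (difference -0.33, SE 0.09, adjusted p = 0.00787). The IL18 difference was -0.13 without both FaDU controls with an extra title word, which leaves 1 FaDU control array. The decoy receptor IL1R2 was 1.91-fold higher in FaDU (0.93, SE 0.12, adjusted p = 2.1e-05) and IL1B 1.28-fold higher (0.36, SE 0.08, adjusted p = 0.00235). IL1RAP, IL1RN and IL33 did not pass (adjusted p = 0.292, 0.887 and 0.152), although the 3 FaDU values of IL1RAP all lay below those of JHU-029. The arrays did not overlap for 2 members higher and 4 lower in FaDU, as was so for 36.6% and 32.4% of all genes. IL33 passed without FaDU shControl replicate 2 (0.30, adjusted p = 0.0324). For IL1A the order of the 4 groups was JHU-029 shControl, JHU-029 shTP63, FaDU shControl and FaDU shTP63, with no overlap between neighbours. For IL1B it was FaDU shControl, JHU-029 shControl, JHU-029 shTP63 and FaDU shTP63, again without overlap. Since the control arrays enter both the line comparison and the knockdown comparisons, these sets of values are not independent.

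Most of the family lies in clusters on chromosome 2. In the RefSeq annotation the receptor genes follow each other as IL1R2, IL1R1, IL1RL2, IL1RL1, IL18R1 and IL18RAP, and the ligand genes as IL1A, IL1B, IL37, IL36G, IL36A, IL36B, IL36RN, IL1F10 and IL1RN. In each cluster 0 other protein-coding genes stand between neighbours, and 55 stand between the clusters. In FaDU only IL1A and IL1B of the ligand cluster passed, next to each other at one end of it. There 26.6% of all genes passed, so that count does not stand apart from the background. In JHU-029 IL1A, IL1B and IL36G passed, where 3.15% of all genes did. The calls of IL1A and IL1B there were lost on dropping any JHU-029 array. IL36G encodes interleukin-36 gamma, a keratinocyte ligand that signals through IL1RL2 and IL1RAP. It fell by 0.64 in JHU-029 (SE 0.07, limma adjusted p = 0.000285) and differed by -0.05 in FaDU (adjusted p = 0.606), where its control mean was 5.62 against 7.19. The difference between lines for IL36G was 0.58 (adjusted p = 0.00156). The other 5 ligands outside the members (IL1F10, IL36A, IL36B, IL36RN and IL37) passed in neither line, and all had group means of at most 6.11.

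**Figure D3:**
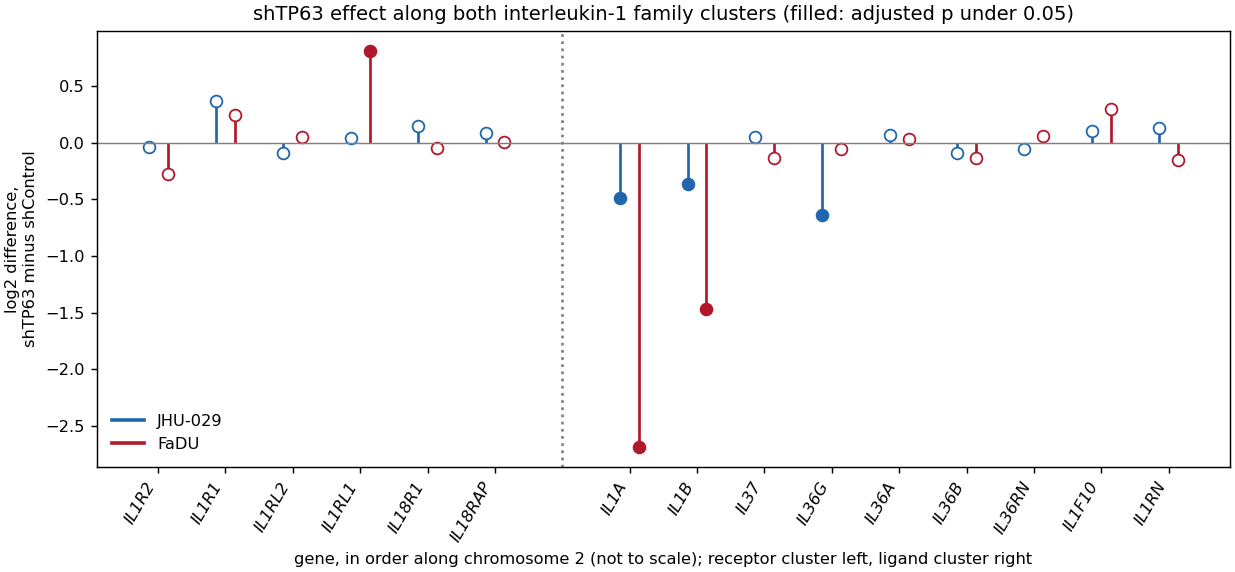
Log2 difference between shTP63 and shControl in JHU-029 (blue) and FaDU (red) for the 15 interleukin-1 family genes of chromosome 2, in their order along the chromosome but not to scale; filled points have an adjusted p under 0.05. The falls of IL1A and IL1B stand at the left end of the ligand cluster, and IL1RL1 rises by 0.81 in FaDU within the receptor cluster.

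Of 8 further receptors and binding proteins, 0 passed in JHU-029 and 2 rose in FaDU. Over all genes 3.15% passed in JHU-029 and 26.6% in FaDU, so neither count stands apart from the background. IL1RL1, the interleukin-33 receptor, rose by 0.81 in FaDU (limma adjusted p = 0.000327), from a mean of 7.27 to 8.08, and by 0.54 without both FaDU controls with an extra title word. In JHU-029 it differed by 0.04 (adjusted p = 0.946). The difference between lines was 0.77 (adjusted p = 0.0112), and 0.50 without both FaDU controls with an extra title word. SIGIRR, an inhibitory receptor of the family, rose by 0.18 in FaDU (adjusted p = 0.0472). That call was lost in 13 of 25 alternatives. Among them were centring on a common median and fits without array 3 of any group or array 2 of either FaDU group (adjusted p up to 0.133). In control cells IL1RL1 was 2.09 higher in FaDU (adjusted p = 7.72e-09), and IL1RL2, the interleukin-36 receptor, differed by -1.66 (adjusted p = 6.1e-08).

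Genes that process and release the ligands moved in both directions. Of 20 measured, 2 fell and 0 rose in JHU-029, where 1.35% of all genes were called lower and 1.8% higher. In FaDU 4 fell and 4 rose, where the shares of all genes were 14.2% and 12.4%. CASP1, the protease that cleaves the precursors of interleukin-1 beta and interleukin-18, fell by 0.46 in JHU-029 (limma adjusted p = 0.0103) and by 0.39 in FaDU (adjusted p = 0.00323). GSDME, a pore-forming gasdermin, fell by 0.65 in JHU-029 (adjusted p = 0.0124) and by 0.82 in FaDU (adjusted p = 0.000268). GSDMD, the gasdermin that opens the pore for interleukin-1 beta, fell by 0.35 in FaDU (adjusted p = 0.000202), and GSDMB rose there by 0.77 (adjusted p = 0.000121). CASP8 rose by 0.26 in FaDU (adjusted p = 0.00832), a call lost with each line fitted alone (0.0541). Without both FaDU controls with an extra title word, CASP8 rose by 0.16. The smaller FaDU differences were 0.22 for the channel PANX1, 0.19 for GSDMC and -0.15 for the calpain CAPN2, the latter 2 named after their values were seen. Each was lost in 15 or 16 of 25 alternatives. For all 3 these included centring on a common median and dropping FaDU shControl array 2 or 3 or FaDU shTP63 array 1. In the settings just named the adjusted p was up to 0.121. PANX1 was also lost without FaDU shControl array 1, FaDU shTP63 array 2, any JHU-029 shControl array or JHU-029 shTP63 array 3. GSDMC was lost without FaDU shTP63 array 3, JHU-029 shControl array 1 or JHU-029 shTP63 array 2. CAPN2 was lost without FaDU shControl array 1, FaDU shTP63 array 2, JHU-029 shControl array 2 or 3 or JHU-029 shTP63 array 2. In JHU-029 the CASP1 call was lost without shControl replicate 2 (adjusted p = 0.0514) and that of GSDME without shControl replicate 1 or 3 (0.0528 and 0.0584).

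Under the control shRNA, 13 of these 20 genes were lower and 4 higher in FaDU than in JHU-029, against 30.4% and 33.4% of all genes. AIM2, a DNA-sensing inflammasome receptor, had a mean of 8.79 in JHU-029 and differed by -4.79 in FaDU (limma adjusted p = 4.97e-13). PYCARD, the adaptor that links such receptors to caspase-1, had 7.26 against 10.38 (-3.12, adjusted p = 4.23e-12). GSDME had 6.95 against 10.48 (-3.53, adjusted p = 5.69e-11), and GSDMD was higher in FaDU by 1.00 (adjusted p = 1.53e-09).

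Of 29 measured genes of receptor-proximal signalling, 1 rose in JHU-029, where 1.8% of all genes were called higher. In FaDU 8 rose and 5 fell, against 12.4% and 14.2% of all genes. In FaDU the ubiquitin ligases PELI1 and TRAF6 rose by 0.60 and 0.50 (limma adjusted p = 0.00101 and 0.000916). TRAF6 rose by 0.31 without both FaDU controls with an extra title word. The adaptor MYD88 rose by 0.28 (adjusted p = 0.015), a call lost with each line fitted alone (0.0714), and by 0.12 without those controls. TNFAIP3, the NF-kB inhibitor A20, fell by 0.65, the kinase IRAK1 by 0.45 and the ubiquitin-conjugating enzyme UBE2N by 0.40 (adjusted p = 8.48e-06, 7.46e-05 and 0.00111). The NF-kB inhibitors NFKBIA and NFKBIE rose by 0.21 and 0.19 (adjusted p = 0.00474 and 0.0419). NFKB2 and IRAK2 rose by 0.22 and 0.23 (adjusted p = 0.00633 and 0.0116). NFKBIA, NFKBIE, NFKB2 and IRAK2 were named after their values were seen. IKBKB, an NF-kB activating kinase, fell by 0.25, and MAPK9, the stress kinase JNK2, fell by 0.29 (named after its value was seen). Without both FaDU controls with an extra title word, IKBKB differed by -0.21. TAB3 rose by 0.28 in JHU-029 (adjusted p = 0.0206), a call lost on dropping any JHU-029 array but shTP63 array 1 (adjusted p up to 0.107). Its FaDU difference was 0.17 (adjusted p = 0.0431), a call lost in 15 of 25 alternatives. Among these were centring on a common median (0.0934), array weights (0.086) and each line alone (0.132). Others dropped any control array of either line, FaDU shTP63 array 1 or 3, or JHU-029 shTP63 array 3 (0.0531 to 0.143). With both FaDU controls with an extra title word out, the TAB3 difference in FaDU was 0.13.

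Genes known to be induced by interleukin-1 or NF-kB in epithelial cells moved in both directions. Of 38 measured, 10 rose and 7 fell in FaDU, where 12.4% of all genes were called higher and 14.2% lower. In JHU-029 3 rose and 2 fell, against 1.8% and 1.35% of all genes. The medians over the list were 0.07 in FaDU and 0.01 in JHU-029, against 0.0156 and 0.000282 over all genes. The falls in FaDU were led by the matrix metalloproteases MMP10 (by 2.66, limma adjusted p = 4.2e-09) and MMP1 (by 1.36, adjusted p = 8.05e-07) and the adhesion molecule ICAM1 (by 0.90, adjusted p = 8.66e-06). The rises were led by complement C3 (1.88), the siderophore-binding protein LCN2 (1.60) and complement factor CFB (1.54). In JHU-029 MMP10 fell by 0.83 (adjusted p = 0.000257) and PTGS2, the inducible cyclooxygenase, by 0.36 (adjusted p = 0.0182). IL6 rose there by 0.59 (adjusted p = 0.000994), LCN2 by 0.38 (adjusted p = 0.0139) and the chemokine CCL20 by 0.42 (adjusted p = 0.0433). In these JHU-029 calls, PTGS2 was lost on dropping any JHU-029 array but shTP63 array 2 (adjusted p up to 0.0784). LCN2 was lost on dropping array 2 or 3 of either JHU-029 group (up to 0.0708). CCL20 was lost in 16 of 24 alternatives, among them dropping any JHU-029 array, FaDU shControl array 1 or any FaDU shTP63 array (up to 0.179).

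**Figure D4:**
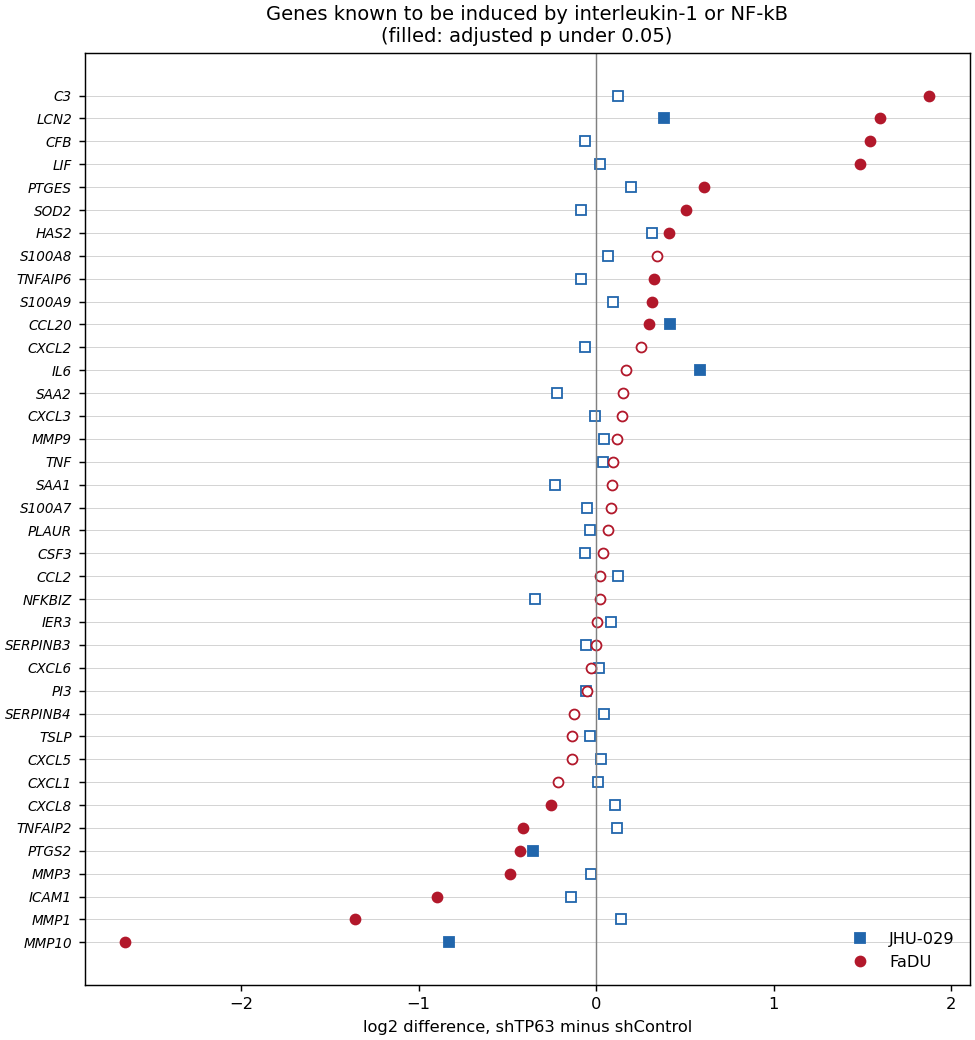
Log2 difference between shTP63 and shControl for 38 genes known to be induced by interleukin-1 or NF-kB, in JHU-029 (blue squares) and FaDU (red circles), ordered by the value in FaDU; filled symbols have an adjusted p under 0.05. The FaDU values run from -2.66 for MMP10 to 1.88 for C3, and most JHU-029 values lie near 0.

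By the similarity rule, the genes most like IL1A over the 12 arrays were EIF3B, a translation initiation factor subunit (Pearson r = 0.998), IFRD1 (0.997) and TOMM34 (0.997), out of 8172 genes with an SD of at least 0.25. Within the 6 arrays of a line, EIF3B correlated with IL1A at 0.987 in JHU-029 and 0.997 in FaDU. Those most like IL1B were C11orf24 (0.991), ALDH1B1 (0.987) and CYP4F11 (0.976), and those most like IL1RAP were TMEM109 (0.958), CDS1 (0.954) and RAB38 (0.952). For IL18 they were EDARADD (0.988), DCTN5 (0.985) and SNORD4A (0.981), and for IL1R1 STARD3NL (0.995), TAB2 (0.994) and MMP28 (0.994). ANKS3, SURF6 and TRAPPC2L were most like IL1R2 (0.972, 0.971 and 0.968). For IL1RN and IL33 the highest values were 0.889 (SOX2) and 0.849 (ZNF182), followed by THAP2 (0.863) and ZSCAN9 (0.852) and by RSBN1 (0.830) and BIK (0.821). These arrays share the same 4 groups, so the correlations describe the group pattern and carry no test.

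All 9 measured genes of the squamous epithelial list lay above the median of all genes in each group. CDH1 and EPCAM among them are not specific to squamous epithelium. The mean of the 9 genes fell with IL1A and IL1B in FaDU, from between 10.72 and 10.81 in the control arrays to between 10.18 and 10.26. There 6 of the 9 fell and 0 rose, against 14.2% and 12.4% of all genes. In JHU-029 the means were 11.65 to 11.74 and 11.54 to 11.64, with EPCAM rising by 0.25 (limma adjusted p = 0.0177), a call lost on dropping any JHU-029 array but shTP63 array 1 (up to 0.0844). Of the 13 immune markers measured 1, the lysosomal protein CD68, lay above that median in each group, and the pan-leukocyte marker PTPRC stayed between 3.37 and 3.55. The mean of the immune list was 5.56 to 5.66 in FaDU controls and 5.70 to 5.73 after knockdown, with CD14 rising by 0.51 (limma adjusted p = 0.00102) and LYZ by 0.76 (adjusted p = 0.00185), or by 0.45 with 16 added to each intensity. Endothelial markers went from 5.56 to 5.70 up to 5.74 to 5.79, with CDH5 rising by 1.00 and ESAM by 0.30, and fibroblast markers from 5.46 to 5.55 up to 5.57 to 5.60, with FBLN1 rising by 0.24. ESAM was lost on dropping array 2 of the FaDU controls or array 3 of the FaDU knockdown (adjusted p up to 0.0979) and with each line alone (0.0676). With both FaDU controls with an extra title word out, ESAM rose by 0.23 and FBLN1 by 0.22. Called higher in FaDU were 2 of 13 immune, 1 of 12 fibroblast and 2 of 10 endothelial markers, and 0 were called lower. The shares of all genes were 12.4% higher and 14.2% lower. The median differences of these 3 lists in FaDU were -0.0106, 0.0837 and 0.0232, against 0.0156 over all genes. The other members of these lists were not called. In JHU-029 the immune, fibroblast and endothelial lists had 0 calls of 13, 12 and 10, where 3.15% of all genes passed. These counts do not stand apart from that share. CD14, LYZ, CDH5, ESAM, FBLN1 and EPCAM were named after their values were seen, and their part in the changes of the interleukin-1 family was not tested. In bulk RNA, fewer cells that express a gene and less RNA per cell cannot be told apart.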

How the data were processed

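The authors deposited linear intensity values of 32321 probe sets, made by RMA in R 2.15.1 per the submitters' processing notes. RMA corrects background, normalises by quantiles and summarises probes. The implementation, the probe set definition and whether the 12 arrays were normalised together are not given in the sources used here. Values were put on a log2 scale with no pseudocount and no filter on dim probe sets. Probe sets with 1 gene symbol (19158) were kept, 1388 with several and 11775 not listed were left out, and the brightest probe set stood for a gene, giving 18404 genes. Of the symbols, 19128 matched RefSeq genes by Entrez ID, and 0 changed.

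The 4 group means were estimated from all 12 arrays in 1 model, using limma 3.58.1 (R 4.3.3; 8 residual and 4.165 prior degrees of freedom). Tests are two-sided, with Benjamini-Hochberg adjustment across the 18404 genes and a threshold of 0.05. Median linear intensity per array was 88.2 to 94.6, and arrays of a group correlated at 0.996 to 0.998. Their number limits the precision, and p-values measure the spread between these arrays, which the labels do not say are separate cultures.

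Members, lists, motifs and alternatives were chosen with earlier results of these data known. Named were the 8 members, up to 3 genes per list, direction and comparison whose arrays did not overlap, and the 3 genes most correlated with each member. For the comparison of the lines under control shRNA only part of these genes is given. None is given there for the signalling and induced lists. Others are marked. The scripts were tested on simulated data, and 25 alternative settings were run.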

Additional observations from a re-analysis of the deposited data

Results flagged for a closer look

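The effect of the shRNA against TP63 differed between FaDU and JHU-029 for several of the genes named, by the limma test of that difference (FaDU effect minus JHU-029 effect, on the log2 scale). Among the members these were IL1A (-2.20, adjusted p = 8.96e-06), IL1B (-1.10, adjusted p = 0.000115) and IL18 (-0.58, adjusted p = 0.0113). Over all genes, 13.2% passed this test. Groups of 3 arrays are too small for a test of single outlying arrays.

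Among other family, processing and signalling genes, the difference was 0.58 for IL36G, 0.77 for IL1RL1, 0.67 for GSDMB, 0.62 for PELI1, 0.57 for TRAF6, -0.54 for TNFAIP3 and -0.32 for IRAK1. It was 0.40 for PANX1, -0.23 for GSDMD and -0.30 for IKBKB, which missed the threshold in 9, 19 and 12 of 24 alternatives. IRAK1 missed it in 3, PELI1 in 2 and IL1RL1 in 1. For NFKB2, NFKBIA and NFKBIE the difference was 0.41, 0.29 and 0.30.

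Among induced genes it was -1.83 for MMP10, 1.75 for C3, 1.61 for CFB, -1.49 for MMP1, 1.22 for LCN2, -0.75 for ICAM1 and -0.42 for IL6. Among markers of other cell types it was 1.11 for CDH5, 0.81 for LYZ, 0.50 for CD14 and 0.26 for FBLN1, the last of which missed the threshold in 16 of 24 alternatives. CD14 missed it in 6 and LYZ in 4 of 23, and IL6 in 2 of 24.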

How the results depend on the processing

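In JHU-029, 3 members passed. With the arrays centred on a common median 0 passed, with a fixed replicate block 0 and with a random replicate block 1. Leaving out 1 array gave between 0 and 3. For FaDU (4 members) the counts without 1 array were 4 to 5, for the difference between lines (3 members) 3 to 4, and for the control comparison (5 members) 5 to 6. In the control comparison 3 passed among genes above the median in at least 1 group, where 8697 of 10306 genes passed. That filter leaves out the dim members and keeps only IL1A, IL1B, IL18 and IL1RAP. No member changed sign while past the threshold. Over all genes in JHU-029, the 580 calls became 1015 with a trend in the variance prior, 2017 with array weights, 1013 with dim genes left out, 172 with the fixed block, and 229 to 273 without any JHU-029 array but shTP63 replicate 1. For the difference between lines, 2433 became 1395 with the fixed block. Same-numbered arrays correlated in their deviations at -0.34 to -0.01 in JHU-029 and -0.08 to 0.01 in FaDU, so the block has no support as a pairing. It gave no value for the control comparison.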

Other observations

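Set against the antagonist IL1RN on the same array, IL1A changed by -2.53 in FaDU and by -0.62 in JHU-029, and IL1B by -1.31 and -0.49 (log2, mean of 3 shTP63 arrays minus mean of 3 shControl arrays). Relative to the control mean, the FaDU knockdown arrays ran from -2.75 to -2.39 for IL1A over IL1RN and the controls from -0.19 to 0.21. In JHU-029 they ran from -0.72 to -0.48 against -0.12 to 0.10. For IL1R1 over the decoy IL1R2 the change was 0.53 in FaDU, with knockdown arrays from 0.18 to 0.83 and controls from -0.45 to 0.30. In JHU-029 it was 0.40, with knockdown arrays from 0.01 to 0.78 and controls from -0.16 to 0.10. The arrays overlapped in both lines. These ratios describe unequal change and were not tested. The means of IL1RN, IL1R1 and IL1R2 lay below the median of all genes in every group. The part of background signal in them was not tested either.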
